A study of Mus musculus with 42 samples.

Results

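The papillomas described here are the 10 skin tumours titled Unknown 1 to Unknown 10, which were hybridised to the second of the series' 2-colour array designs and carry no risk label. They are 10 of the 42 samples of the series, and they were chosen by their titles and array design alone. All 10 came from female Sencar mice, a stock bred for sensitivity to skin carcinogenesis, initiated at 7 to 8 weeks of age. DMBA, a polycyclic hydrocarbon that mutates DNA, served as the initiator, and the phorbol ester TPA as the tumour promoter. The disease state given for each is papilloma, the benign outgrowth that this protocol yields, and only Unknown 3 has a treatment time, given as "Many weeks". No source used here says whether the tumours came from separate mice or which of them were at low or high risk of progressing to carcinoma, so p-values measure only the spread between these samples. On every array the tumour cDNA carried Cy3 and a universal mouse reference RNA from Clontech, pooled from whole tissues, carried Cy5.

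Squamous papillomas consist largely of keratinocytes, the cells of the epidermis. In normal epidermis, basal keratinocytes anchored to the basement membrane divide, leave that layer, and then build the cornified envelope, a shell of cross-linked proteins such as involucrin, loricrin, the small proline-rich proteins (SPRR) and the late cornified envelope proteins (LCE). Wounding, inflammation and phorbol esters switch keratinocytes to another programme with the keratins Krt6a, Krt6b, Krt16 and Krt17 and the calcium-binding alarmins S100A8 and S100A9. Phorbol esters act through protein kinase C on the AP-1 family of transcription factors, which bind a short palindromic motif.

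The measured quantity was the log2 ratio of a gene in the tumour over the same gene in the reference RNA, with each array centred on its median, so that 1 stands for a 2-fold excess over the reference. A high ratio means more of the transcript than in a mixture of whole tissues, and not a change from normal skin, since no normal skin was hybridised to this array design. The direction of the deposited ratio is not stated in the sources used here and is called likely. As deposited, the 59 genes of the keratinocyte lists had medians of -4.86 to -3.12 on the 10 arrays. The 114 genes of internal organs had medians of 1.26 to 2.75, and the sign was therefore changed. That the basal, activated and terminal differentiation lists lie above the reference and the organ lists below follows from this choice. It is no separate evidence of direction. That the log base is 2 was likewise inferred. Dyes were not swapped on any of the 10 arrays, so the dye preference of a probe cannot be told apart from a difference from the reference.

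The promoters printed here show the sequence context of genes that stood far above the reference in every tumour. They are those among the 15 genes with the highest medians that had the motif TGANTCA within the 200 bases before their start site. These were 4 of the 13 that had a window, and the motif is in capitals. TGANTCA is wider than the usual AP-1 site, which has G or C in the middle. The matches in Sprr2h and Sprr2k have G or C there, whereas Rptn has T and Sprr1b has A. The sequences come from RefSeq for build GRCm38.p6. The window of Rptn (repetin) is chr3:93393499-93393698 on the plus strand, with the motif starting 96 bases before the start site. The window of Sprr2h is chr3:92385485-92385684 on the plus strand, with the motif 198 bases before the start. That of Sprr1b is chr3:92438780-92438979 on the minus strand, with the motif 111 bases before the start. That of Sprr2k is chr3:92432382-92432581 on the plus strand, with motifs 196 and 182 bases before the start.
Rptn: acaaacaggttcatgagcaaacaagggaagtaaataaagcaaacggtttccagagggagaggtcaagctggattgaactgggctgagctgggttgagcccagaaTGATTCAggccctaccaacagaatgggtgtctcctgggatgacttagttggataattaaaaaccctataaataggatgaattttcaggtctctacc
Sprr2h: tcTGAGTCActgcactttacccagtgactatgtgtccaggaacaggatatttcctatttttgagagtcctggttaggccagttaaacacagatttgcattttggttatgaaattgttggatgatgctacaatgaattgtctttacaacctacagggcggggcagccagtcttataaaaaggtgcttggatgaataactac
Sprr1b: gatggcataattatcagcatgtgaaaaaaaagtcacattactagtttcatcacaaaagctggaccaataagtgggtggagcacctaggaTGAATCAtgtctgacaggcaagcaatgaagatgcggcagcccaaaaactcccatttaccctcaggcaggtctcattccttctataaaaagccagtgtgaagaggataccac
Sprr2k: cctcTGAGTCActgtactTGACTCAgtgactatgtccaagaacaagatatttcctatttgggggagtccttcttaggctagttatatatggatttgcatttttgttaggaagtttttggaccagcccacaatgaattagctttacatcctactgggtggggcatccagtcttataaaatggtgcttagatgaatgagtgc
TGANTCA reads the same on both strands. It was present in the 250 bases upstream of 31 of 329 promoter windows of genes 2-fold above the reference in all 10 tumours (9.42%), and in 39 of 659 windows of genes 2-fold below (5.92%). Among 12781 windows of genes measured on all 10 arrays the share was 5.30%, and among all 32851 windows 6.75%. The 329 windows came from 260 genes and are not independent. A higher share was not particular to TGANTCA. The motif TATAAA, on either strand, was in 13.4% of the 329 windows and 10.2% of the 659. Its share was 8.19% among the 12781 windows and 12.4% among all. These matches describe letters in a window, and binding was not measured.

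The 10 arrays differed in quality, and the difference followed a number in their titles. The 6 arrays with database numbers 75060 to 76031 (Unknown 7, 8, 9, 10, 1 and 3) had 1.73% to 5.41% of 36924 probes empty and a standard deviation of the deposited ratios of 1.14 to 1.5. The 4 arrays with numbers 77928 to 78458 (Unknown 4, 6, 5 and 2) had 6.43% to 28.6% empty and a standard deviation of 1.73 to 2.39. Correlations between arrays, taken across probes, which are not independent replicates, had a median of 0.66 among the lower numbers, 0.56 among the higher numbers and 0.51 between them. Unknown 7 and Unknown 8 were the most alike, with r = 0.80 and a median absolute difference of 0.46. No array is labelled as a repeat hybridisation of a tumour, so spread between tumours and spread between hybridisations cannot be told apart.

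**Figure D1:**
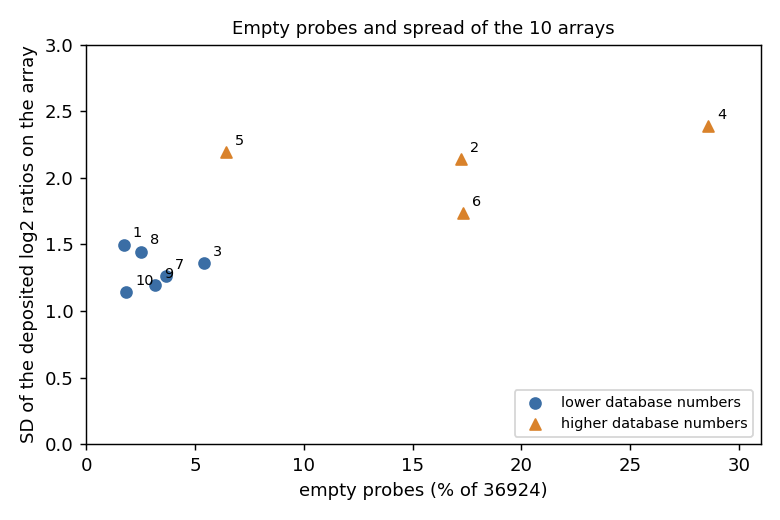
Share of empty probes on each array (x axis, % of 36924 probes) against the standard deviation of its deposited log2 ratios (y axis), 1 point per papilloma with the number from its title. The 4 arrays with higher database numbers lie above and to the right, at standard deviations of 1.73 to 2.39 and 6.43% to 28.6% empty probes.

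Of 16907 genes measured on at least 7 arrays, 3347 lay above the reference (19.8%) and 4185 below it (24.8%) by limma's moderated test with Benjamini-Hochberg adjustment over 25866 genes and unnamed probes, at an adjusted p under 0.05. Over all 25866, 20.1% were above and 21.2% below, 41.3% together. The counts given below for each gene list are to be read against the 19.8% above and 24.8% below of all genes. Of the 12531 genes measured on all 10 arrays, 353 were at least 2-fold above the reference in every tumour (2.82%) and 624 at least 2-fold below in every tumour (4.98%). With unnamed probes these shares were 2.54% and 4.46%, and 10.1% of 16959 were above 0 on all 10 arrays and 16% below 0. The median over the 12531 genes was -0.19. With the 4 arrays of higher database numbers alone, 4098 of 21983 genes and unnamed probes passed the test instead of 10679, and with the 6 of lower numbers 10017 of 27007. Tested against a 1.5-fold difference instead of 0, 4489 passed.

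The largest excesses over the reference included those of cysteine protease inhibitors, cornified envelope proteins and a fatty acid carrier. Genes of other kinds, such as Arhgap6, Defb6, H1f8, Lypd3 and Klk7, were also among them. The 15 highest medians, among called genes on 1 side of 0 in all 10 tumours, belonged to Stfa2l1, Stfa3, Arhgap6, Stfa2, Defb6, Rptn, Fabp5, H1f8, Csta2, Lypd3, Sprr2h, Sprr1b, Sprr2k, Calml3 and Klk7. At the other end stood genes of the testis and epididymis (Ldhc, Crisp2, Gpx5, Meig1, Mael, Spz1, Tdrd6, Iqcf5, Dnah8, Tcte3), the kidney (Kap, Umod), the lung (Sftpc, Napsa) and a glandular kallikrein (Klk1b5).

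**Figure D2:**
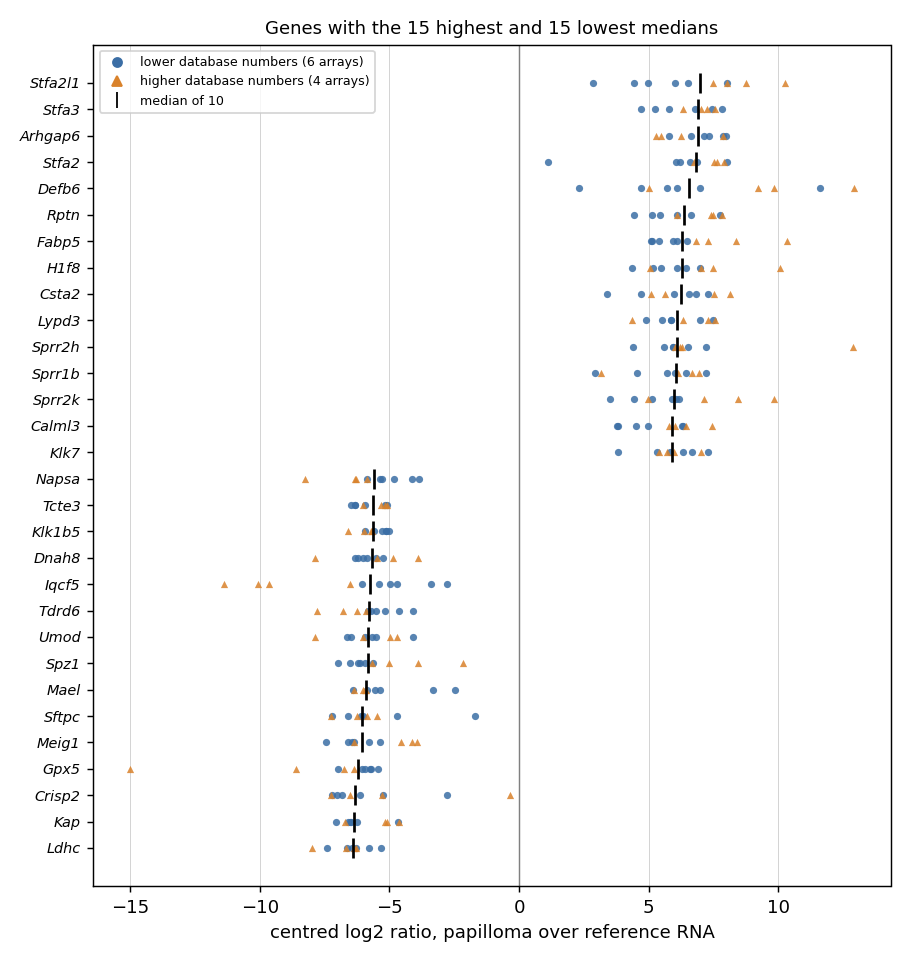
Centred log2 ratio of papilloma over reference RNA (x axis) for the genes with the 15 highest and 15 lowest medians (y axis). Points are single arrays, circles for lower and triangles for higher database numbers, and bars are medians of 10; no point of any of these genes crosses 0, and Gpx5 reaches -15.02 on Unknown 2.

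Genes far above the reference were concentrated in a stretch of chromosome 3, the epidermal differentiation complex, where genes for cornified envelope proteins lie side by side. Of 646 placed genes of chromosome 3 measured on all 10 arrays, 48 were 2-fold above in every tumour (7.43%). Over all chromosomes 350 of 12494 were (2.80%). The same number of chromosome 3 genes, 48 (7.43%), were 2-fold below in every tumour, against 4.96% over all chromosomes. In RefSeq's gene order, 40 consecutive measured genes from Prr9 to Them4 held 29 of the 48 that were above. The first 20 of them, from Prr9 to Lce1e, held 18, with Sprr2f and Smcp as the exceptions. Smcp, which encodes a protein of the sperm mitochondrial capsule, had a median of -5.27 (range -6.29 to -3.57) and lay between Ivl at 3.88 and Lce1a1 at 4.47. Sprr2f had a median of 0.71 (range -0.72 to 3.36) and did not pass the test, which it did without Unknown 1, 2 or 4. Beyond Rptn the medians were lower, from Tchhl1 at 1.03 and S100a11 at 2.11 to Tdpoz1 at -0.08 and Them4 at -1.02. These runs were found after the values were seen and are described without a test, and probes for near-identical SPRR2 or LCE1 members may share signal.

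**Figure D3:**
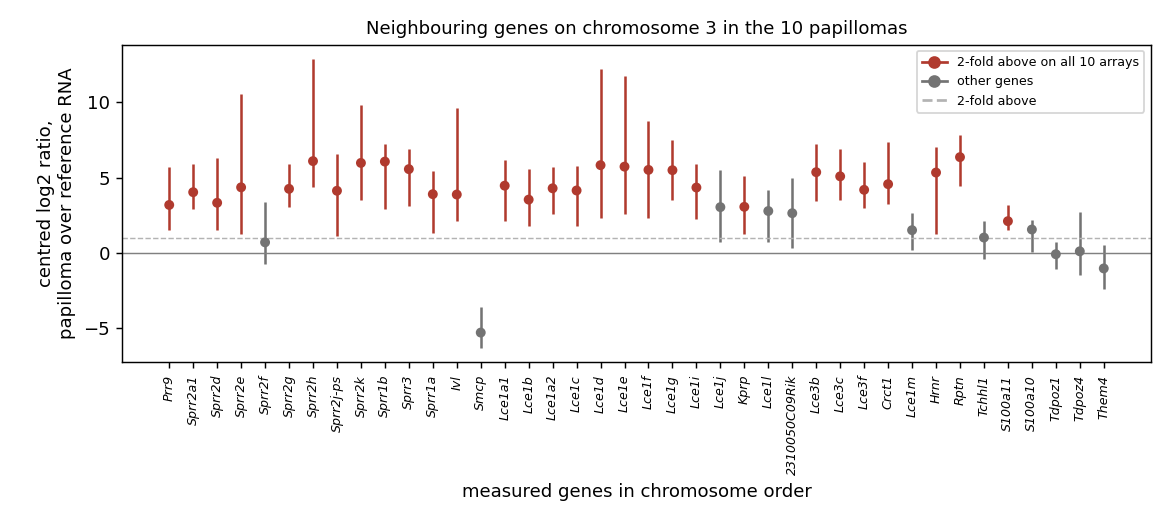
Median (point) and range over 10 arrays (line) of the centred log2 ratio of papilloma over reference RNA (y axis) for 40 neighbouring measured genes on chromosome 3 in RefSeq order (x axis). The 29 red genes were at least 2-fold above the reference (dashed line) on all 10 arrays, and Smcp stands alone at a median of -5.27.

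Shorter runs lay at other gene families. On chromosome 16, 5 of 20 neighbours were 2-fold above in every tumour, among them Stfa2l1, Csta2, Stfa2 and Stfa3. On chromosome 15, 6 of 20 were, the keratin genes Krt75, Krt6b, Krt6a, Krt1, Krt78 and Krt8. The other probe of Krt8 had a median of -1.74, and with the mean of its probes Krt8 was not called (0.48, limma adjusted p = 0.0744). Chromosome 7 held neighbouring kallikreins on opposite sides: Klk14, Klk11, Klk9 and Klk7, epidermal serine proteases, were 2-fold above in every tumour, and the glandular kallikreins Klk1b11, Klk1b27, Klk1b24, Klk1b5 and Klk1 were 2-fold below. On chromosome 2, the seminal vesicle genes Svs2, Svs4 and Svs5 and the neighbouring Wfdc15a and Wfdc15b were 2-fold below.

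Stefins, small inhibitors of lysosomal cysteine proteases that keratinocytes and neutrophils make, led the ranking. Stfa3 ranged from 4.69 in Unknown 3 to 7.82 in Unknown 10, with a median of 6.90 and a limma mean of 6.58 ± 0.32 (SE, n = 10, adjusted p = 5.13e-08). Stfa2l1 ranged more widely, from 2.87 in Unknown 3 to 10.26 in Unknown 2, around a median of 6.99. Stfa2 lay between 6.04 and 8.00 in 9 tumours and at 1.13 in Unknown 3. Unknown 3 was thus the lowest tumour for each of these stefins, and all values of the 3 genes were above the reference. Csta2, a related gene, did not share this order: its lowest value, 3.39, was in Unknown 10 and its highest, 8.14, in Unknown 2. The stefin probes may share signal, because these genes are close copies.

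The SPRR family, whose members are cross-linked into the envelope and rise in stressed epithelia, had 13 tested genes, of which 11 were above the reference and 0 below, with a median of 4.03 against -0.04 over all tested genes. Sprr1b ranged from 2.93 in Unknown 7 to 7.20 in Unknown 9, with a median of 6.06 (mean 5.57 ± 0.43 SE, n = 10, limma adjusted p = 8.75e-07). Sprr3 ranged from 3.12 to 6.90 with a median of 5.56. Its median was 6.20 in the lower and 4.55 in the higher database numbers, and that of Sprr1a 4.34 and 2.68. Sprr2h lay between 4.38 and 7.23 in 9 tumours and at 12.86 in Unknown 4. Sprr2k (median 5.97, range 3.49 to 9.83) and Sprr2e (4.36, range 1.28 to 10.53) were also highest in Unknown 4. Unknown 4 was the array with the most empty probes, and what part this had in its SPRR2 values was not tested.

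All 16 tested LCE genes were above the reference, with a median of 4.40. The LCE proteins are late additions to the envelope, and those with the highest medians were Lce1d (5.83, range 2.30 to 12.22), Lce1e (5.73, range 2.57 to 11.72), Lce1f (5.51, range 2.35 to 8.76) and Lce1g (5.49, range 3.54 to 7.48). Lce1g had the narrowest range of the 4 and a limma mean of 5.40 ± 0.35 (SE, n = 10, adjusted p = 2.3e-07). The other probe of Lce1e had a median of 2.14. On the mean of the family, tumours ran from 2.84 in Unknown 3 to 5.34.

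Other terminal differentiation genes followed, with 18 of 19 tested above the reference, 0 below and a median of 4.25. Repetin, an S100-fused protein of the envelope precursor, had ratios of 4.45 in Unknown 3 to 7.82 in Unknown 6 with a median of 6.36 (mean 6.42 ± 0.35 SE, n = 10, limma adjusted p = 7.69e-08), and the other probe of Rptn gave 6.15. The calmodulin-like proteins Calml3 (median 5.90, range 3.76 to 7.44) and Calm4 (5.56, range 4.84 to 7.60) were high in all 10 tumours. Hornerin (Hrnr), a filaggrin relative, lay between 1.26 in Unknown 3 and 7.02 in Unknown 1. Involucrin (Ivl) had a median of 3.88 and reached 9.59 in Unknown 5. Sciellin (Scel) had a median of 3.12, with 10.87 in Unknown 4 and -1.04 in Unknown 9, and dermokine (Dmkn) had a median of 4.87 with -0.99 in Unknown 2, so that neither kept 1 sign over the 10 tumours although both passed the test (adjusted p = 0.005 and 7.47e-05).

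Keratins separated into those of the activated state and those of the normal suprabasal layers. Krt6a ranged from 3.20 in Unknown 7 to 6.79 in Unknown 1, with a median of 5.04 (mean 5.28 ± 0.34 SE, n = 10, limma adjusted p = 2.15e-07), and its other probes had medians of 4.90 and 5.26. Krt16, its partner, ranged from 2.84 to 6.92 with a median of 5.55, and Unknown 7 and Unknown 1 were again the lowest and the highest. Krt1 and Krt10, the keratins of differentiating suprabasal cells, had medians of 2.50 (range 1.28 to 4.19) and 1.82 (range 0.59 to 4.15). Krt2, the keratin of the latest suprabasal layers, chosen after its values were seen, had ratios of -0.53 to 1.00 and was not called (adjusted p = 0.675), and loricrin (Lor), chosen likewise, had a median of 2.42 with a range of -0.70 to 4.13. Since each ratio is relative to its own level in the reference, the order of keratins here is not an order of their amounts.

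Of 20 tested genes of the activated keratinocyte list, 19 were above the reference and 0 below, and the list had the highest median of all 39 lists, 4.62. S100a9 ranged from 4.29 in Unknown 8 to 9.17 in Unknown 6, with a median of 5.47 (mean 5.77 ± 0.40 SE, n = 10, limma adjusted p = 3.96e-07). Its partner S100a8 had a median of 4.64 and ran from 0.21 in Unknown 3 to 6.34 in Unknown 4. Both are made by activated keratinocytes and by neutrophils, and in bulk tumours more cells of a type and more RNA per cell cannot be told apart. Fabp5, the epidermal fatty acid binding protein, had ratios of 5.10 to 10.33 with a median of 6.29, and its second probe gave 5.88. Chil1, a chitinase-like protein, was the member that did not pass the test (median 1.07, range -1.35 to 4.08, adjusted p = 0.059), although it did without Unknown 3 or Unknown 4. The serpin Serpinb3a had a median of 4.60 and was higher in the lower database numbers (5.34) than in the higher ones (2.99).

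Cytokines and chemokines of the interleukin-1 and neutrophil-attracting families stood above the reference, with 18 of 31 tested genes above, 1 below and a median of 1.30. Il1f6 and Il1f9, which encode the interleukin-36 alpha and gamma of keratinocytes, had medians of 4.75 (range 1.41 to 6.72) and 3.95 (range 1.96 to 11.58). Il1r2, a decoy receptor for interleukin-1, had a median of 3.23 (range 0.17 to 4.54). Il1b, chosen after its values were seen, had ratios of -2.03 to 1.42 and was not called (adjusted p = 0.541). The neutrophil chemokines Cxcl5 (median 3.25, range 0.54 to 11.07), Cxcl3 (3.97, range 0.71 to 9.02) and Cxcl2 (2.94, range 0.47 to 11.01) were above in all 10 tumours. Their standard deviations were 3.24, 3.17 and 2.93, and that of the envelope gene Lce1d was 3.14. The median standard deviation of the cytokine list, 1.37, was no larger than that of the SPRR list, 1.45. Tslp, an epithelial cytokine that acts on dendritic and type 2 immune cells, had a median of 2.81 and reached 9.79 in Unknown 5. Cxcl12, a stromal chemokine, was the gene below, with a median of -1.83, and -10.52 in Unknown 2.

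Basal layer genes were above the reference in 17 of 20 tested cases, with a median of 2.62, and 1 was below. Krt14 ranged from 1.74 in Unknown 7 to 6.45 in Unknown 10 with a median of 3.38 (mean 3.62 ± 0.38 SE, n = 10, limma adjusted p = 1.22e-05), and Krt5, its partner, from 0.36 to 4.73 with a median of 2.31. Col17a1, a hemidesmosome collagen, kept to 3.85 to 6.52 (mean 5.28 ± 0.25 SE, n = 10, adjusted p = 4.85e-08). Perp, a desmosome protein, ranged from 3.27 to 6.67. Trp63, the master regulator of stratified epithelium, had a median of 4.18 with 2.19 in Unknown 10 and 11.50 in Unknown 4. Cd44, a hyaluronan receptor, had a median of 4.44 in the lower database numbers and 9.82 in the higher ones, and its 8 other probes had medians of 0.41 to 4.82. Lgals7 (galectin-7) had a median of 5.44 on its chosen probe and -0.44 on the other, so its direction depended on the probe. Lama3, a laminin chain of the basement membrane, had a median of 2.01 on 1 probe and -0.85 on the other. Dst, which encodes the hemidesmosome plakin BPAG1 as well as neuronal and muscle isoforms, was the gene below, at a median of -1.58 with its 7 other probes at -0.80 to 0.24.

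Of 10 tested genes of desmosomes and other cell junctions, 7 were above and 1 below, with a median of 2.27. The desmosomal plaque genes Pkp1 (median 4.31, range 2.42 to 6.91), Pkp3 (4.2, range 3.25 to 6.51) and Dsp (4.07, range 2.86 to 7.49) were at similar ratios, and Jup, shared with adherens junctions, had a median of 2.47 (range 1.46 to 4.02). All 4 were highest in Unknown 4. Nectin1 lay between 0.55 and 2.28 in 9 tumours and at 11.89 in Unknown 4, and did not pass the test (limma adjusted p = 0.051), but it passed without Unknown 4, with a mean of 1.33 (adjusted p = 0.000641), and when the arrays were not centred, were scaled or were quantile normalised.

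Proteases that shed the outermost cells, and their inhibitors, were above the reference in 17 of 20 tested cases, with 0 below and a median of 3.31. Klk7, which cuts the proteins of corneodesmosomes, kept to a range of 3.81 to 7.27 (mean 5.93 ± 0.30 SE, n = 10, limma adjusted p = 5.78e-08). Klk8 had a median of 5.95 but lay at -4.28 in Unknown 2. Spink5, which encodes the kallikrein inhibitor LEKTI, had a median of 5.22, and its medians were 3.67 in the lower and 7.19 in the higher database numbers. The serpins Serpinb12 (median 5.77, range 2.19 to 10.43) and Serpinb5, or maspin (4.69, range 0.18 to 10.09), were above in all 10 tumours.

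Genes of the lipid barrier were above the reference in 12 of 15 tested cases, with a median of 2.21. Sult2b1, a cholesterol sulfotransferase, had a median of 4.81 (range 3.80 to 8.98) on its chosen probe and 0.31 on the other. Abca12, the ceramide transporter of lamellar granules, had 4.73 (range 2.92 to 10.36) and 1.81 on its other probe. Alox12b, a lipoxygenase that oxidises barrier ceramides, had 3.90 (range 2.60 to 5.80), and Elovl4, which extends very long fatty acids, had 3.79 (range 2.67 to 5.62). Sebaceous gland genes were not raised as a group, with 1 of 15 above, 3 below and a median of 0.27. Of all genes 19.8% were above and 24.8% below.

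Antimicrobial genes went both ways, with 9 of 15 tested above the reference and 4 below. The beta-defensin Defb6 had a median of 6.54 and 1 of the widest ranges, from 2.31 in Unknown 3 to 12.93 in Unknown 6. Defb14, another beta-defensin, ranged from 1.60 to 5.78 around 4.29. Slpi, a leukocyte protease inhibitor, had a median of 4.76 with -0.31 in Unknown 2. The lysozymes Lyz1 (median -4.17, range -5.67 to -2.70) and Lyz2 (-3.31, range -5.59 to -2.04) were below in every tumour.

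Ligands, receptors and nuclear targets of epidermal growth factor signalling were above in 10 of 27 tested cases and below in 2, with a median of 0.53. Tgfa, an EGFR ligand that keratinocytes make, had a median of 2.49 and ran from 1.99 in Unknown 3 to 6.58 in Unknown 4 (mean 2.97 ± 0.40 SE, n = 10, limma adjusted p = 7.58e-05). Egf, abundant in kidney and salivary gland, lay at -5.33 to -2.06. Myc had a median of 2.30 (range 0.04 to 3.05) and the AP-1 gene Junb a median of 1.83 (range 0.65 to 3.63). Fos, also of AP-1, had ratios of -1.17 to 4.76 and was not called (adjusted p = 0.0668), but was without Unknown 1.

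Growth-related groups were shifted less than the epidermal ones. Ribosomal protein genes were above in 43 of 53 tested cases and below in 0, with a median of 1.02; Rpl13a had a median of 2.34, with medians of its 22 other probes from 0.05 to 2.25, and Rps3 one of 1.73. Cell cycle genes were above in 14 of 44 and below in 8, with a median of 0.28. Mki67, a marker of dividing cells, had a median of 2.06 (range 0.54 to 2.95), Ccna2 (cyclin A2) one of 2.06 (range 1.00 to 4.72) and Tk1 (thymidine kinase) one of 1.90 (range 1.49 to 4.32), with its other probes at 0.71 and 0.80. Nek2, a centrosomal kinase, was below at a median of -1.81, with 2.12 in Unknown 8; its call was lost without Unknown 6 (limma adjusted p = 0.0544).

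Genes of glycolysis and the response to low oxygen were above in 15 of 26 tested cases and below in 4, with a median of 0.86. Egln3, an oxygen sensor of the HIF pathway, had a median of 3.75 (range 1.67 to 5.89) and Slc2a1, the glucose transporter GLUT1, one of 2.49 (range 1.53 to 6.67). Hif1a had the narrow range of 1.53 to 3.05, with a median of 2.61, but 0.13 on its other probe. Pfkp, a phosphofructokinase, had a median of 2.76 with -0.53 in Unknown 1. Oxidative phosphorylation genes were above in 6 of 55 and below in 18, with a median of -0.39: Atp5g1 (ATP synthase) had a median of 2.47, and Sdhc and Sdhb (succinate dehydrogenase) had -1.76 and -1.57.

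Detoxifying enzymes of the glutathione S-transferase family were on both sides. Gsto1 (median 3.58, range 2.75 to 5.94) and Gsta4 (3.41, range 2.57 to 5.10) were above in all 10 tumours. Gstm5 (-4.32, range -5.30 to -2.70) and Gstm1 (-3.39, range -3.75 to -2.32) were below in all 10, although the other probe of Gstm1 gave 0.19. Among genes of eicosanoid and polyamine metabolism, 8 of 22 were above and 3 below: Arg1 (arginase 1) had a median of 3.02 (range 1.78 to 5.68), the leukotriene B4 receptor Ltb4r1 one of 1.99 and prostaglandin E synthase Ptges one of 1.80. Odc1 (ornithine decarboxylase), the polyamine enzyme that TPA induces in skin, chosen after its values were seen, had a median of 0.20 and was not called.

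Below the reference, the testis genes formed the deepest group, although their list was among those used to set the sign. All 23 tested were below, with a median of -4.18, and 19 of the 22 measured on all 10 arrays were at least 2-fold below in each tumour. Ldhc, the lactate dehydrogenase of sperm, ranged from -7.96 in Unknown 6 to -5.34 in Unknown 7 with a median of -6.39 (mean -6.52 ± 0.25 SE, n = 10, limma adjusted p = 9.7e-09), and its other probe gave -6.53. Tcte3, a dynein chain of sperm, ranged from -6.49 to -5.08. Crisp2, a sperm protein, had a median of -6.33 but -0.36 in Unknown 5. Meig1 and Tnp1, of spermatids, had medians of -6.06 and -5.59.

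Genes of other internal organs were also below the reference, with smaller medians. Kidney, pancreas and gut genes were below in 13 of 22 tested cases and above in 3, with Kap (median -6.37, range -7.05 to -4.62), Umod (-5.81, range -7.85 to -4.07) and the phosphate transporter Slc34a1 (-4.88, range -7.0 to -1.92) farthest. Lung and heart genes were below in 12 of 18 and above in 2, with the surfactant genes Sftpc (-6.04, range -7.25 to -1.71) and Sftpa1 (-5.0, range -6.05 to -2.83) farthest. Brain genes were below in 15 of 24 and above in 2, with Ptgds at -4.80 (range -5.75 to -3.16) and Syt1 at -3.42 (range -5.83 to -2.08). Liver genes were below in 11 of 25 and above in 1, with Ttr at -4.85 and Alb at -4.15. Simple epithelial genes, a group that includes keratins outside normal epidermis, divided into 5 of 12 above and 5 below.

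Stromal and immune genes lay on both sides of the reference, and their ratios say nothing of their amount in skin. The fibroblast markers Col1a1, Col1a2, Col3a1 and Pdgfra were not called (Pdgfra was called below without Unknown 4), and Dcn (decorin) was below with a median of -2.73 (range -6.62 to -1.28). Of 17 tested endothelial genes 10 were below and 1 above, among them Pecam1 (-0.95), Cdh5 (-1.32) and Kdr (-0.85). Adipocyte genes were below in 10 of 19 cases, with Pck1 at -4.89 and Cd36 at -3.64, whereas Fabp4 was above in every tumour (median 2.99, range 1.28 to 3.83). Adipoq was not called (limma adjusted p = 0.0707). It was called below without Unknown 6, after scaling or quantile normalisation, with array weights, and on the 6 arrays with lower database numbers. The globins Hba-a1, Hbb-b1 and Hbb-b2 had medians of -2.45, -2.58 and -3.03, and the Hbb probes may share signal. Timp3, a matrix protease inhibitor, lay at -4.85 to -2.07, and the collagenase Mmp13 at 0.95 to 5.54 with a median of 2.74. S100a4 was the fibroblast list gene farthest above, at a median of 2.78 (range 1.68 to 3.45).

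Of 22 tested genes of the neutrophil list, 9 were above the reference and 1 below. Ngp, a neutrophil granule protein, had a median of 3.79 (range 1.34 to 6.11) and Cxcr2, the receptor for the chemokines above, one of 2.73 over 9 arrays, while the granule genes Mpo, Elane, Camp, Ltf, Mmp8 and Mmp9 were not called; Mpo was called without Unknown 4. Of the 9 genes above, Cxcl1, Cxcl2, Cxcl3, Cxcl5, S100a8 and S100a9 can also come from keratinocytes. Macrophage genes were below in 6 of 21 and above in 2, near the 24.8% of all genes that were below, with Aif1 at a median of -4.0 and Adgre1, Cd68 and C1qa not called. T cell genes were below in 5 of 23, a share no higher than that of all genes, with Cd3d at -1.82 and Cd3e at -0.95, but Cd3g was not called. The call of Cd3e was lost without Unknown 1, 2, 3, 5, 7, 8 or 9, at adjusted p-values up to 0.0851. The immunoglobulin genes Jchain (-3.70), Igkc (-3.67) and Ighm (-2.06) were below, as were the MHC class II genes H2-Ea (-2.84), H2-Eb1 (-2.61) and H2-Ab1 (-1.29) and their chaperone Cd74 (-1.37). Mast cell genes were above in 6 of 16 and below in 3. The markers Cpa3, Cma1 and Mcpt4 were not called, but Cpa3 was called above with the mean of its probes (2.02, limma adjusted p = 0.0426). Tph1, an enzyme of serotonin synthesis, was above at a median of 1.63 over 7 arrays, and Ms4a2, a chain of the IgE receptor, below at -3.45. The B cell markers Cd79a and Cd79b were not called. B cell genes were above in 1 of 14 and below in 4, the latter near the share of all genes. Skeletal muscle genes were above in 5 of 29 and below in 6, near the 19.8% and 24.8% of all genes. The markers Acta1, Mylpf, Ckm and Myh4 were not called, and Ttn (titin) was above at a median of 5.12, with medians of -0.48 to 1.00 on its 8 other probes.

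Hair follicle genes were above in 13 of 22 tested cases and below in 3, with a median of 0.87. The inner root sheath keratins Krt25 (median 1.82, range -0.70 to 4.99) and Krt71 (1.5, range 0.20 to 3.51) passed the test, as did Krt27 on 7 arrays. Hoxc13, a regulator of hair keratins, had a median of 1.16 (range -0.47 to 2.01) and was not called with the range of the database number as a block (limma adjusted p = 0.0509). Lef1, the Wnt mediator of hair fate, was below at -1.93 (range -3.08 to -0.30). Of the melanocyte markers, Tyrp1 was above on 8 arrays with a median of 1.74, and Dct was not called (adjusted p = 0.0551), but was without Unknown 3 or Unknown 7.

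**Figure D4:**
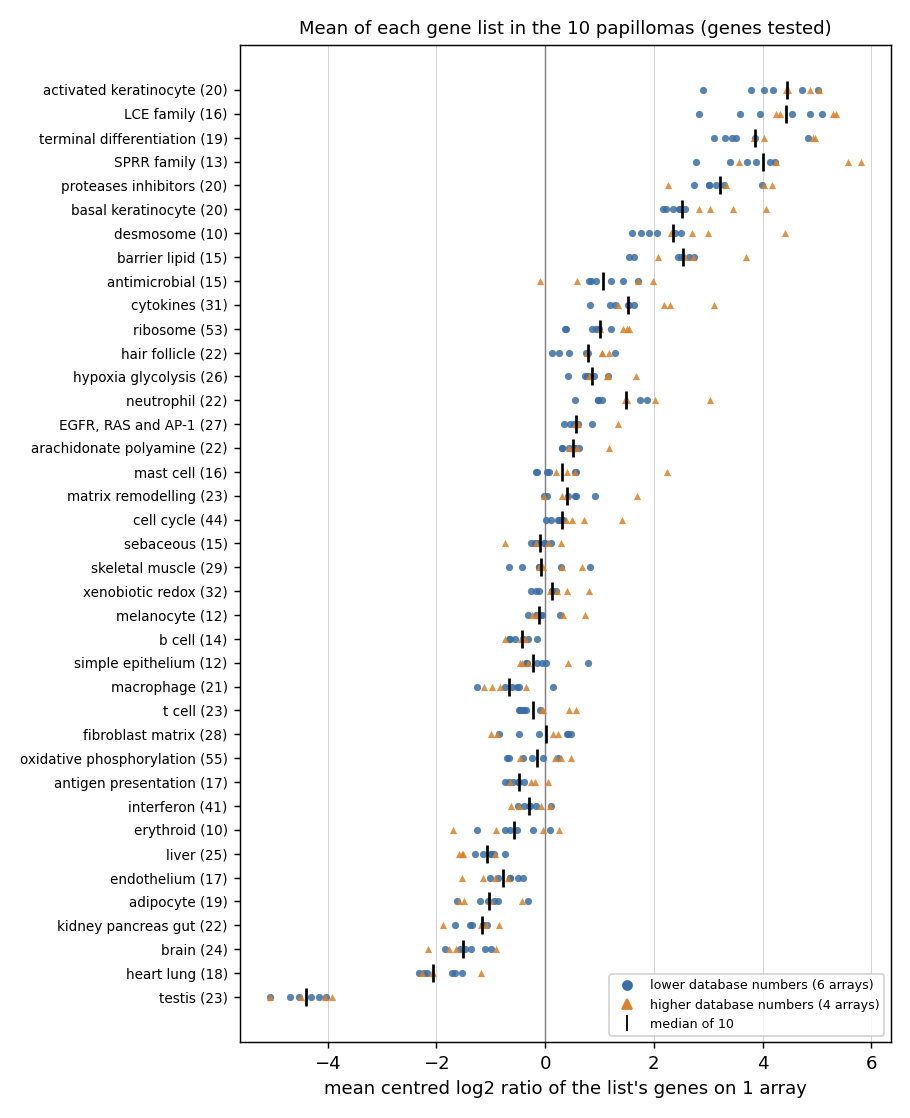
Mean centred log2 ratio of the tested genes of each of 39 lists (y axis, with the number of genes tested) on each array (x axis); circles are arrays with lower and triangles arrays with higher database numbers, and bars are medians of the 10 arrays. Keratinocyte lists lie at the top with medians of list members up to 4.62 and the testis list at the bottom at -4.18.

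Averaged over a list, all 10 tumours were above the reference on the activated, LCE, SPRR, terminal differentiation, protease, basal, junction and lipid barrier lists. The mean of the activated keratinocyte list ran from 2.90 in Unknown 3 to 5.04 in Unknown 5, of the SPRR list from 2.78 in Unknown 3 to 5.81 and of the basal list from 2.16 in Unknown 8 to 4.07 in Unknown 4. On the basal list each of the 4 arrays with higher numbers (2.83 to 4.07) was above each of the 6 with lower numbers (2.16 to 2.57). After all arrays had been scaled to the same spread, the highest mean of the basal list was instead in Unknown 10, at 3.89, and the lowest in Unknown 5, at 2.11. Of the 39 lists, 10 had the same lowest and the same highest array before and after this scaling.

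Genes that varied most by standard deviation mostly had their farthest value on an array with a higher database number. In some of them a single array stood far from the other 9, and in others several arrays did. Among the 12531 genes on all 10 arrays the median standard deviation was 0.87. Of the 200 genes with the largest, 196 had their farthest value on one of the 4 arrays with higher database numbers, 91 on Unknown 4 and 66 on Unknown 2. Slitrk6, a membrane protein of neurons and sensory epithelia, had the largest, 4.13, with 13.81 in Unknown 4 and 0.92 in Unknown 10. It was also high in Unknown 2 (9.76) and Unknown 6 (7.39). Synj2bp, a mitochondrial outer membrane protein, lay between -2.57 and -0.58 in 9 tumours and at 9.71 in Unknown 4, and its other probe had a median of -0.19. Synj2bp was not called, but was called below without Unknown 4, with a mean of -1.49. Tbc1d13 was 1 of the 2 genes among the 200 with their farthest value on Unknown 10, at 10.81 around a median of 0.07.

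Clustering of these 200 genes by their correlation across arrays gave groups whose mean stood far off on 1 array, although single members could be far off on others too. The largest, of 113 genes, was on average 6.78 above its gene means in Unknown 4, with Slitrk6, Tmprss11g, Pcdhb17, Moxd1 and Synj2bp of the largest standard deviations. A group of 58, led by Bcas1, Lzts3, Taf5, Tm7sf3 and Klk8, had a mean deviation of -7.17 in Unknown 2. Bcas1 itself lay at -10.01 in Unknown 2, -10.43 in Unknown 5 and -8.46 in Unknown 4. A group of 15 led by Vxn and Itgb3bp was 7.07 above in Unknown 2, and one of 10 led by U2af2 had a mean deviation of -7.41 in Unknown 5. The last 2 groups held 2 genes each, Sfta3-ps and Cemip in Unknown 4 and Tbc1d13 and Trim69 in Unknown 10. The clusters were made from the same values and are a description.

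Ranked by the median absolute deviation, which a single array moves little, the list changed: 29 of 200 genes were in both rankings. The genes at its head included inflammatory and epithelial genes. Cxcl3 was first, with 8.20 to 9.02 in Unknown 4, 5 and 2 and 0.71 to 4.95 in the other 7 tumours. Defb6 was second, and Trim69 and Cul4a, which are not epidermal genes, followed. Il1f6 was low in Unknown 10 (1.41), 3 and 2 and high in Unknown 5 (6.72), 1 and 7. The chitinase-like genes Chil3 and Chil4, which mouse macrophages and epithelia make in type 2 inflammation, ran together: Chil4 was highest in Unknown 8 (6.42) and lowest in Unknown 6 (-1.16), with a median of 2.45, and Chil3 highest in Unknown 8 (4.83) and lowest in Unknown 3 (-1.64), with a median of 1.10. Both have a second probe, at medians of 2.27 and 1.07, and may share signal as close copies. Chil4 passed the test (limma adjusted p = 0.0258) but not without Unknown 2, 5, 7 or 8, and Chil3 did not (0.0656) but would have without Unknown 1 or 3.

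Grouping the 200 genes of this ranking, a step added after the data were seen, put Defb6, Chil4, Chil3, Tgm3 and Krt33a into a group of 17 genes that was high in Unknown 5, 8 and 2, with mean deviations of 2.29, 1.82 and 1.23. Single members could differ from this mean. Defb6 was highest in Unknown 6, at 12.93, where the mean deviation of the group was -1.10. Unknown 8 has a lower database number and Unknown 5 and 2 have higher ones, so this group did not follow the number. A larger group of 50 genes, led by Cxcl3, Slitrk6 and Cxcl5, did follow the number. Its mean deviations were 0.89 to 3.27 on the 4 arrays with higher numbers and -1.40 to -0.81 on those with lower numbers. Tgm3, a transglutaminase of the late envelope, ranged from 1.60 in Unknown 10 to 6.51 in Unknown 8. Acta1, the actin of skeletal muscle, ranged from -3.51 in Unknown 5 to 2.73 in Unknown 10, where Mylpf, Ckm and Myh4 had 2.15, 0.89 and 0.97; Myh4 was highest in Unknown 4, at 4.53. The mean of the skeletal muscle list was highest in Unknown 10, at 0.83. Even in this ranking 133 of 200 genes had their farthest value among the 4 arrays with higher numbers.

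**Figure D5:**
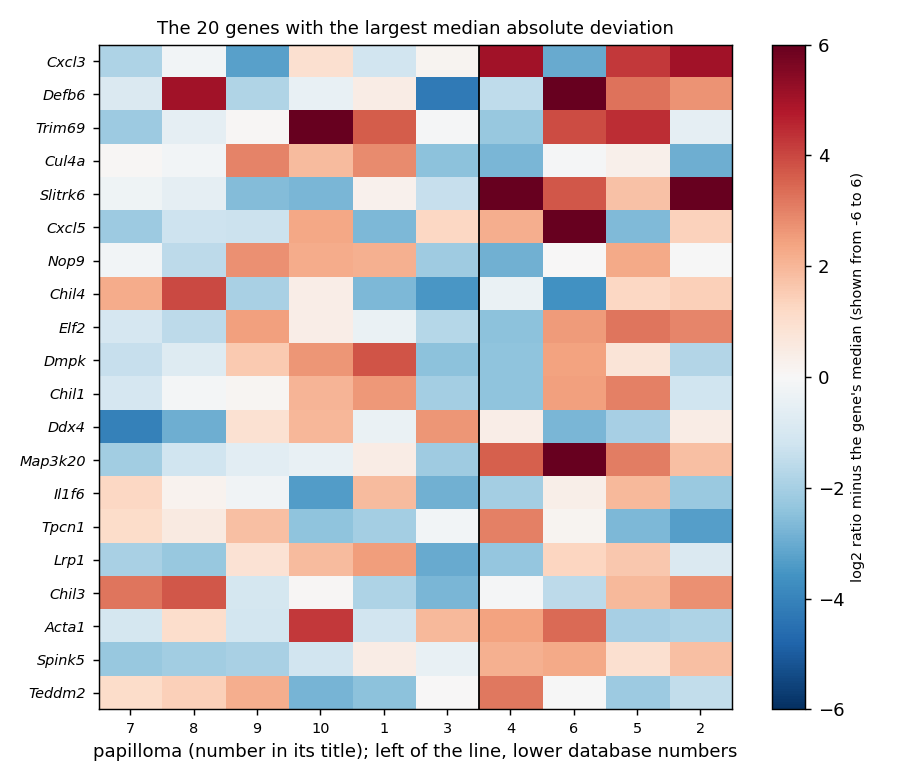
Log2 ratio minus the gene's median over 10 arrays (colour, shown from -6 to 6) for the 20 genes with the largest median absolute deviation (y axis) in each papilloma (x axis, ordered by database number). Chil3 and Chil4 are high in Unknown 7 and 8 on the left and in Unknown 5 and 2 on the right, and Cxcl3 is high in Unknown 4, 5 and 2.

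A probe disagreement touched the third gene of the ranking. Arhgap6, which encodes a GTPase-activating protein, had ratios of 5.28 to 7.99 (mean 6.76 ± 0.31 SE, n = 10, limma adjusted p = 4.02e-08) on the chosen probe and a median of -0.04 on its other probe. Mmp28, an epidermal matrix protease, likewise had a median of 3.50 on 1 probe and -0.24 on the other. For these genes the direction holds for a probe and not for the gene.

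Values of the same genes on the first array design, which was normalised separately, are given beside these without a test, over up to 6 normal skins, 9 low-risk and 10 high-risk papillomas, leaving out an array with swapped dyes. Rptn had a median of 6.36 in the 10 papillomas of unknown risk, and 0.02 in normal skin, 4.33 in low-risk and 4.61 in high-risk papillomas of the first design. S100a9 had 5.47 here, and -1.27, 4.81 and 4.86 in those groups. Il1b had 0.02 here, and 0.23, 4.42 and 3.14 there. Ivl had 3.88 here, and -0.45, -0.34 and -0.97 there. For Rptn and S100a9 the papillomas of both designs were on the same side of the reference, while Il1b and Ivl stood apart between the designs. Tumour and design cannot be told apart. These genes were picked without a rule from the many compared, so they do not show how often the designs were alike.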

How the data were processed

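RNA was isolated with TRIzol and RNeasy columns and labelled by the aminoallyl method, per the labels' protocols. The authors deposited normalised log2 ratios of the 2 channels, 1 per probe and array; how they were normalised is not given in the sources used here, nor are spot intensities, so signal over background is unknown. The sign was changed, each array was centred on its median, and 1 probe was kept per gene symbol (most values, then the larger mean absolute value). For genes with several probes this choice favours values far from 0, so their calls, 2-fold counts and p-values lean away from 0. With the mean of a gene's probes instead, 10299 of 25876 passed the test, against 10679. Genes 2-fold off on every array then numbered 295 above and 537 below, against 353 and 624. Of 36924 probes, 26926 had 1 symbol, 203 several and 9795 none in the annotation used. Probes with values on at least 7 arrays were tested against 0 with limma 3.58.1 (R 4.3.3), adjusted over 25866 genes and unnamed probes; the 4185 genes below and 3347 above are those with a symbol. On simulated data of this size, 67% of shifts of 2 and 12% of shifts of 1 (log2) were recovered, with 3 false calls. The simulation shifted only 100 genes or probes by each amount and drew independent normal noise, with no array wider than another. In the real data 41.3% were called, so the adjustment was less strict there, and the simulated rates do not carry over.

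Genes were named by a rule: the 15 highest and lowest medians, the 20 largest standard deviations, up to 5 genes per cluster, and in each list the members farthest from 0 and most variable, plus fixed cell type markers. The members, lists and tests were chosen with earlier results of these data known. Genes outside the rule, among them those in the chromosome runs and the members of a list named as not called, were chosen after their values were seen. Alternatives were other centring and scaling, probe choice, filters, limma settings, the range of the database number as a block, and leaving out each array.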

Additional observations from a re-analysis of the deposited data

Results flagged for a closer look

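Each value below lay so far from those of the other papillomas with a value that its gap to the nearest, divided by the whole range, passed Dixon's critical value. Of 279 sets of values examined (named genes, means of gene lists and measures of the arrays), 45 had such a value (16.1%), where chance gives about 1 in 20; several of the genes were named because of a large standard deviation. Of the 45 values, 39 were on the 4 arrays with higher database numbers, 26 on Unknown 4 and 10 on Unknown 2.

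Unknown 4 stood far above for epidermal and growth-related genes: Sprr2h at 12.86, Lce1e at 11.72, Scel at 10.87, Abca12 at 10.36, Nectin1 at 11.89, Il1f9 at 11.58, Tgfa at 6.58, Slc2a1 at 6.67, Gsto1 at 5.94 and Rpl13a at 6.47. It did so for leukocyte genes too, with Cpa3 at 9.30, Mcpt4 at 9.96, Cma1 at 3.00, Mpo at 9.39, Cxcr2 at 9.69, Cxcl2 at 11.01 and Aif1 at -0.53, and for Moxd1 at 12.64 and Synj2bp at 9.71. Sfta3-ps at -11.52 and Cemip at -9.03 were far below there. On Unknown 4 the list means of desmosome and junction genes (4.41), mast cell genes (2.24), cell cycle genes (1.42), EGFR, RAS and AP-1 genes (1.34) and eicosanoid and polyamine genes (1.17) also stood above the other 9. Unknown 4 had 28.6% of its probes empty, and the part of this in its values was not tested.

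Unknown 2 stood far below for Gpx5 (-15.02), Cxcl12 (-10.52), Taf5 (-8.19), Ighm (-5.88), Klk8 (-4.28), Cd68 (-4.02), Dmkn (-0.99) and Slpi (-0.31), and above for Vxn (11.11) and Itgb3bp (7.93). Unknown 6 stood above for Cxcl5 (11.07) and S100a9 (9.17), and Unknown 5 below for U2af2 (-8.45). On the arrays with lower database numbers, Unknown 3 stood below for Stfa2 (1.13) and S100a8 (0.21), Unknown 10 above for Tbc1d13 (10.81) and Sftpa1 (-2.83) and below for Myc (0.037), and Unknown 7 above for Sftpc (-1.71).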

How the results depend on the processing

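No paired analysis was possible because the 10 papillomas form a single group and no other group was hybridised to this array design. The count of genes and unnamed probes off the reference, 10679, stayed within 1.5 times under other centring, scaling, quantile normalisation, probe choice, array weights, robust variances and the block, and was 9138 (without Unknown 5) to 10727 (without Unknown 4) with 1 array left out. It was 4489 tested against 1.5-fold (1833 above, 2656 below) and, chosen after seeing the data, 4098 on the 4 arrays with higher database numbers (1801 above, 2297 below); with probes on all 10 arrays, 3421 were above, where fewer probes were tested. Genes 2-fold off on every array numbered 2456 on those 4 arrays (975 above, 1481 below) and 1623 on the other 6 (552 above, 1071 below), where fewer arrays had to pass. They numbered 2709 with 8 arrays required (960 above, 1749 below) and 327 at 4-fold (129 above, 198 below). Of the 200 genes of largest standard deviation, 97 were kept after scaling, 91 after quantile normalisation, 108 with mean probes, 93 with genes on 8 arrays, 29 by median absolute deviation, 62 by the range without the extreme arrays and 11 on the 6 lower-numbered arrays. Leaving out 1 array kept 113 (without Unknown 4) to 197. Lists above the all-gene median numbered 23 of 39 and 22 to 24 under the alternatives, but 6 lists changed side under at least 1 of them (B cell, T cell, melanocyte, skeletal muscle, simple epithelium and matrix remodelling). Of 193 called genes that the text names, 158 kept their call under all 22 alternatives and 0 changed sign. A call was lost for 28 on the 4 higher-numbered arrays, 13 against 1.5-fold, 5 with mean probes (Cul4a, Dst, Krt8, Lama3 and Lzts3) and 4 with the block (Cd3e, Hoxc13, Lzts3 and Nek2). Of the genes not called, 14 were called under at least 1 alternative. Signal over background is unknown in these files.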

Other observations

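Several genes with high ratios were empty on some arrays and so fell outside the ranking; they were chosen after their values were seen. Il1f5, which encodes the antagonist of the interleukin-36 receptor, had a median of 6.76 over 9 arrays (range 4.01 to 8.22, limma mean 6.24 ± 0.45 SE, adjusted p = 9.49e-07). Ereg (epiregulin), an EGFR ligand, had a median of 6.21 over 9 arrays (range 3.60 to 10.74), with 2.41 on its other probe, and the beta-defensin Defb3 one of 5.91 over 8 arrays (range 1.70 to 7.59). Krt13, a keratin of internal stratified epithelia, was above the reference in all 10 tumours, from 0.72 in Unknown 5 to 6.12 in Unknown 4 with a median of 3.17, and 2.89 on its other probe. Krt19, a keratin of simple epithelia and the hair bulge, was below at a median of -2.36, with 1.72 in Unknown 3.

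Interferon-responsive genes were below the reference in 15 of 41 tested cases and above in 5, with a median over the list of -0.44. Those below included the immunity-related GTPases Igtp (median -2.23, with 1.10 in Unknown 3) and Iigp1 (-1.94), and Bst2 (tetherin) at -1.81, with a range of -2.71 to -1.26. Tap2, a transporter of peptides for MHC class I, was above at a median of 2.29, from 0.15 in Unknown 2 to 3.63 in Unknown 10, and Ifi27 at 2.02.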
